A study of Mus musculus with 23 samples.

Results

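The genes that encode the proteins of the mitochondrial ribosome were described in neutrophils sorted from mouse bone marrow (BM), peripheral blood (PB) and lung, and in neutrophils of mice that lack Piezo1 in their blood cells. Members were chosen by name alone, as every symbol made of Mrpl or Mrps, a number and at most 1 letter from a to c. This gave 77 of the 21878 genes in the tables, 48 named for the large subunit (Mrpl) and 29 for the small subunit (Mrps). The name rule used no measured value. In 44 members the number is shared with a bacterial ribosomal protein family, and in 33 it is a number given only to mitochondrial proteins.

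Mitochondrial ribosomes translate the few mRNAs encoded in mitochondrial DNA, all of which encode subunits of the respiratory chain and ATP synthase. Their rRNAs come from the same DNA, while every ribosomal protein is encoded in the nucleus, made in the cytosol and imported. Neutrophils are known for a small mitochondrial mass, for energy taken mainly from glycolysis, and for a loss of biosynthetic capacity as they mature in the marrow.

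Poly(A) RNA was sequenced from 17 libraries of sorted neutrophils in 2 experiments. The tissue comparison held 3 libraries each from BM, PB and lung of untreated wild-type mice. The Piezo1 experiment held 2 libraries each from lung and PB of wild-type mice (WT) and of Piezo1-cKO mice, untreated as well, in which Vav1-iCre had recombined a Piezo1 fl/fl allele with loxP sites around exons 20 to 23. The mice were C57BL/6J and 7 to 12 weeks old, and the labels call the controls of both experiments only wild type. Vav1-iCre acts in all blood cell lineages and not in neutrophils alone. Lungs were perfused, and cells of lung and PB were enriched by negative selection before the gate CD45+CD11b+Ly6G+. The study's tissue processing describes collagenase digestion for lung and none for PB or BM. Such a handling difference cannot be told apart from tissue in the comparisons with lung, and its part was not tested. The study calls its replicates biologically independent and counts the tissue comparison in mice, but the labels tie no library to an animal, and whether BM, PB and lung came from the same mice is not given in the sources used here. Each p-value measures the spread between these libraries.

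The reads counted in genes were about 9621000 to 19330800 per library, the lowest being a PB library of Piezo1-cKO mice, and 3 reads, taken as the detection floor, correspond to 0.155 to 0.312 RPM (reads scaled to library depth). Intervals and floors of this kind cover counting error only. All 8 neutrophil markers checked, among them Ly6g, S100a8 and Csf3r, were detected in every group. Markers of immature and cycling neutrophils differed widely, with a summed level over 10 genes of 15410 to 15685 FPKM in BM, 236 to 321 in PB and 214 to 222 in lung, led by the granule genes Ltf and Camp. Within that list the cycling marker Mki67 was also highest in BM, at 15.6 to 16.7 FPKM. Between PB and lung it went the other way, with 0.0503 to 0.0537 in PB and 1.31 to 1.63 in lung. Prtn3 overlapped between BM and PB. Epithelial markers (Sftpc, Epcam, Scgb1a1) summed to 1.37 to 2.43 FPKM in lung and to 0 in PB of the tissue comparison. Bulk values cannot tell a larger share of one cell type from more RNA per cell.

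Levels are given as FPKM, which counts fragments per gene length and library depth and can be compared between genes. Differences are log2 fold changes on the scale log2(FPKM + 1), with the standard error (SE) from limma, and understate the change of low genes. A gene was called where the Benjamini-Hochberg adjusted p over all genes tested was below 0.05 and the absolute log2 fold change was above 1. Gene positions are RefSeq spans on GRCm38.p6. Genes below 1 FPKM in more libraries than the filter allows were not tested.

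Promoters are shown first for 3 members on which the results below turn: Mrpl33, the most abundant member, Mrpl52, which had the largest rise in lung, and Mrpl51, which was among the deepest falls. Each sequence is the 250 bases before a RefSeq transcript start on GRCm38.p6, plus strand, at chr5:31613701-31613950 for Mrpl33, chr14:54426659-54426908 for Mrpl52 and chr6:125191950-125192199 for Mrpl51. Capitals mark a match to GCATGCG (NRF1, the nuclear respiratory factor) in Mrpl33 or to CCGGAAG (ETS factors) in Mrpl52 and Mrpl51, on either strand.
Mrpl33: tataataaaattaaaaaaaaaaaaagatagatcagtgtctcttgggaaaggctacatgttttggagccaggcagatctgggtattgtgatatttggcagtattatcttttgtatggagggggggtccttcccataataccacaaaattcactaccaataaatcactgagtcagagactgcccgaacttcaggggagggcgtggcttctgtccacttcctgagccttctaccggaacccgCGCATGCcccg
Mrpl52: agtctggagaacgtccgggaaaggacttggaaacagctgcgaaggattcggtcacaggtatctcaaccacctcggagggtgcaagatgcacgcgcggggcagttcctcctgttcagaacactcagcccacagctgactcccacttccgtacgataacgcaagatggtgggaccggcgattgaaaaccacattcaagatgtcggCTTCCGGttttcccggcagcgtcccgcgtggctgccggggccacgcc
Mrpl51: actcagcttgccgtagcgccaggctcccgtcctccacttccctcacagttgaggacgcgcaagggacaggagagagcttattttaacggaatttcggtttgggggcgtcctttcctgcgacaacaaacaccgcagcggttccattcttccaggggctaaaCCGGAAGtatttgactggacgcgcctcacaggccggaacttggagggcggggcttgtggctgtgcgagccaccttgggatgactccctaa

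RefSeq promoters were matched for 68 of the 77 members, and both strands were searched. CCGGAAG stood in 17 of these 68 (25%), beside 7.83% of all 27025 genes with a promoter and 18.3% of the 6728 such genes that were tested in lung against BM. GCATGCG stood in 8 (11.8%), beside 3.43% and 6.69%. The YY1 letters AAGATGGC stood in 4 (5.88%), the TATA letters TATAAA in 5 (7.35%) and the GC box letters GGGCGG in 33 (48.5%), beside 2.71%, 7.30% and 65.4% of the genes tested. In lung against BM, 1 of the 16 tested members with CCGGAAG rose and 11 fell, with a median log2 fold change of -1.29, and of the 42 tested members without it 0 rose and 19 fell, with a median of -0.96. Over all genes tested in that comparison, 9.86% were called higher and 36% lower. In WT lung against WT PB of the Piezo1 experiment, 6 of 14 with CCGGAAG and 17 of 39 without it fell, beside 26.5% of all genes. The medians were -0.85 and -0.87. For GCATGCG and AAGATGGC in lung against BM, the 7 and 4 tested members with a match had medians of -0.87 and -0.86. The 51 and 54 tested members without it had medians of -1.03 and -1.07. A match is a description of letters, and the difference between these groups of members was not tested.

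Most members were low to moderate transcripts, and one stood far above the others. Mrpl33, a large subunit protein of a bacterial family, reached 268, 255 and 273 FPKM in the 3 BM libraries, 428, 424 and 411 in PB, and 347, 357 and 322 in lung. The 3 tissues did not overlap, in the order PB, lung, BM. Its share of the summed FPKM of all members was 35.9 to 36.8% in BM, 47.4 to 48.5% in PB and 59.0 to 60.8% in lung. Of its exon bases, 22.4% are also annotated to Gm43809 on the same strand, so part of these reads cannot be assigned with certainty. The next in BM were of the small subunit, Mrps21 with 50.0, 48.4 and 42.2 FPKM, followed by Mrps18c with 35.4, 30.2 and 31.4 FPKM and Mrps15 with 33.8, 30.6 and 32.6 FPKM, which overlapped each other.

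All 77 members were detected in each BM library, 73 to 76 in PB and 73 or 74 in lung. The number at or above 1 FPKM was 63 to 65 in BM, 52 to 54 in PB and 40 to 42 in lung, and the median member had 100 to 105 reads in BM, 56 to 66 in PB and 25 to 28 in lung. Over all genes, 8080 to 8110 reached 1 FPKM in BM, 7452 to 7583 in PB and 6887 to 6899 in lung. Among detected genes, the median percentile of the members was 49.9 to 50.4 in BM, 44.2 to 48.1 in PB and 43.3 to 46.3 in lung. On this rank PB and lung overlapped. Without Mrpl33 the members made up 0.0932 to 0.0954% of the summed FPKM of a BM library, 0.104 to 0.113% in PB and 0.0544 to 0.0559% in lung. These ranges did not overlap. With Mrpl33 the shares were 0.145 to 0.151%, 0.198 to 0.217% and 0.133 to 0.143%. The Piezo1 experiment was measured and scaled separately, and there the shares without Mrpl33 were 0.0524 to 0.0544% for WT and 0.0546 to 0.0579% for Piezo1-cKO in lung, and 0.101 to 0.102% and 0.105 to 0.107% in PB.

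**Figure D1:**
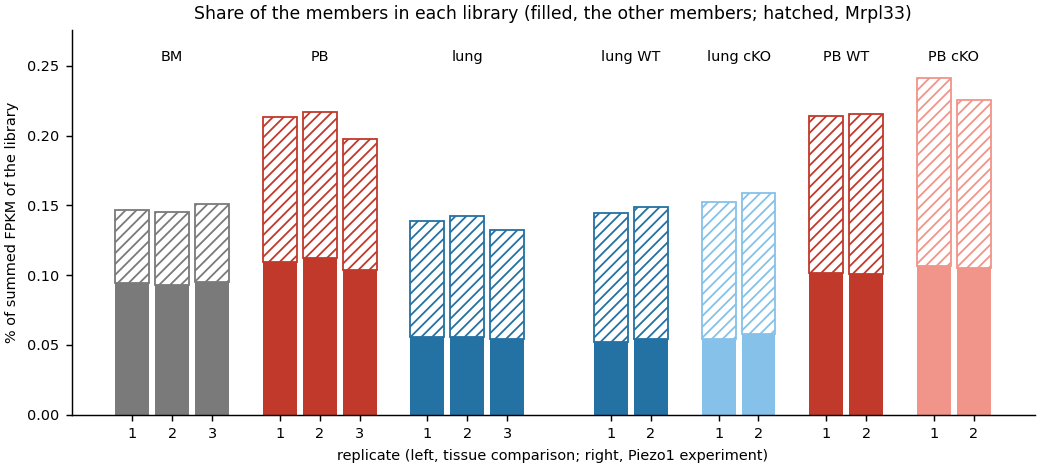
Share of each library's summed FPKM taken by the 77 mitochondrial ribosomal protein genes, in percent (y axis), for every library (x axis, replicate number within its group); filled bars are the 76 members without Mrpl33 and hatched bars are Mrpl33. Without Mrpl33 the lung bars of the tissue comparison reach 0.0544 to 0.0559%, below the BM bars at 0.0932 to 0.0954%.

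Of the 66 members with a mean of at least 1 FPKM in some tissue, 46 were highest in BM (69.7%), 16 in PB (24.2%) and 4 in lung (6.06%). Among all 8561 genes meeting the same condition, BM was highest for 51.9%, PB for 33.3% and lung for 14.8%. With FPKM rescaled by the median ratio of genes, BM was highest for 39 of the 66 members (59.1%), PB for 19 (28.8%) and lung for 8 (12.1%). The shares of all genes were then 39.0%, 25.6% and 35.4%. These counts describe means only, with no test behind them.

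**Figure D2:**
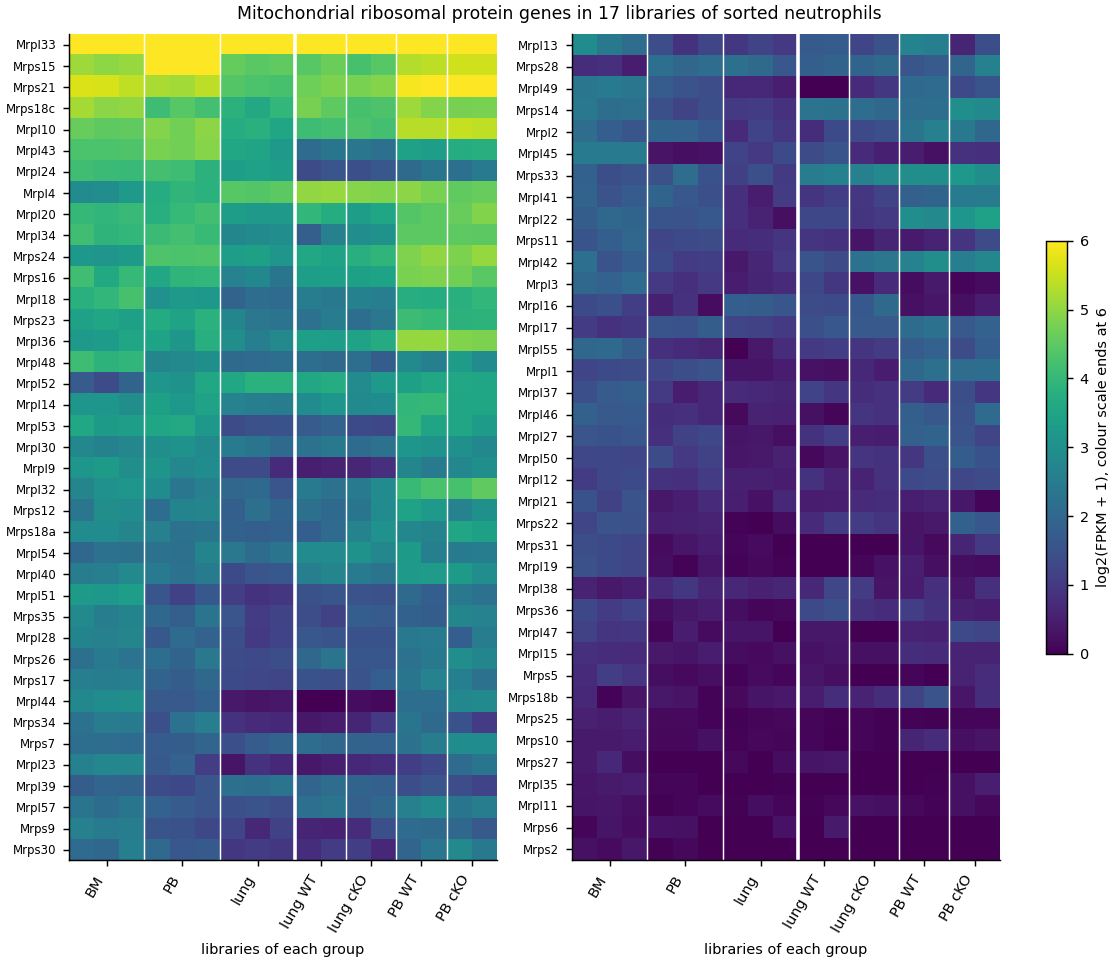
Level of each of the 77 members (rows, ordered by their mean in the tissue comparison and split into 2 columns of panels) in the 17 libraries (grouped along the x axis), as log2(FPKM + 1) in colour. Mrpl33 lies beyond the end of the colour scale, at 6, in every library, and Mrpl44 and Mrpl9 are dark in lung and brighter in BM and PB.

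Lung neutrophils were compared with BM neutrophils to ask how the cells of a tissue differ from those at their site of production. Of the 65 members tested, 3 rose in lung, 34 fell and 28 were not called. Mrpl52, Mrpl4 and Mrps28 were the 3 that rose, by 1.28 to 2.07 on the log2 scale, and Mrpl44, Mrpl51 and Mrpl23 fell most, by 2.53, 2.29 and 2.11. Across all 8236 genes tested, 9.86% were called higher and 36% lower in lung, so falling was frequent in general. The median log2 fold change was -1.03 over the members and -0.70 over all genes tested.

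The scale of the libraries moved these numbers. After rescaling FPKM by the median ratio of genes, the median of all genes was -0.04 and that of the members -0.49. Then 4 members were called higher and 12 lower, beside 19% and 14.3% of all genes. By edgeR on the recovered reads, 7 members rose and 30 fell, beside 21.3% and 23.1% of all genes, with a median of -0.90 beside -0.07 over all genes. In each of these fits the members' median was below that of all genes. Of the 34 members called lower, 14 had passed the filter only through their level in BM and had to differ, and 12 of the 77 members were not tested. Leaving out BM library 1, 2 or 3 gave 24, 23 and 24 calls with 45 members tested, because 20 members had reached the filter through BM alone.

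Mrpl52 (chr14:54426909-54429750), a large subunit protein found only in mitochondrial ribosomes, reached 2.28, 1.63 and 2.77 FPKM in BM, 7.95, 7.38 and 11.1 in PB, and 10.9, 13.3 and 13.2 in lung. Every PB and lung library was above every BM library, while PB and lung overlapped. It rose by 2.07 ± 0.13 (SE) from BM to lung (limma, adjusted p = 8.77e-08), which was 2.78 above the median gene. Mrpl4 (chr9:21001252-21008839), the counterpart of bacterial protein L4, reached 6.45, 6.70 and 8.52 FPKM in BM, 12.2, 14.2 and 13.4 in PB, and 20.6, 20.1 and 21.3 in lung. The 3 tissues were separate, and lung exceeded BM by 1.41 ± 0.09 (limma, adjusted p = 8.29e-08). Mrps28 (chr3:8802146-8923857), a small subunit protein, reached 0.722, 0.788 and 0.377 FPKM in BM on 5 to 11 reads, and 3.64, 3.23 and 2.10 in lung on 25 to 45 reads. Its rise of 1.28 ± 0.15 (limma, adjusted p = 1.8e-05) was that of a member which passed the filter only through lung.

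The deepest fall was that of Mrpl44 (chr1:79776018-79781445), a large subunit protein with an RNase III-like fold whose mutation in humans causes cardiomyopathy. Its levels were 6.0, 6.5 and 6.80 FPKM in BM, 2.18, 2.17 and 2.64 in PB, and 0.328, 0.246 and 0.298 in lung, where 6 to 8 reads were counted. The tissues formed 3 separate steps, and lung was 2.53 ± 0.07 below BM (limma, adjusted p = 3.24e-10). Mrpl44 had passed the filter only through BM. Mrpl51 reached 8.57, 8.16 and 9.05 FPKM in BM but 2.05, 1.22 and 2.13 in PB and 1.12, 0.846 and 0.920 in lung. Most of its difference was thus already present between BM and PB, and lung was 2.29 ± 0.08 below BM (limma, adjusted p = 8.75e-10). Mrpl9, the counterpart of bacterial L9, behaved otherwise, with 7.95, 8.70 and 6.78 FPKM in BM, 7.57, 5.85 and 6.52 in PB and 1.6, 1.6 and 0.680 in lung. BM and PB overlapped and lung lay apart, 1.96 ± 0.16 below BM (limma, adjusted p = 9.7e-07). Mrpl23 fell by 2.11 ± 0.12 and Mrpl18 by 1.97 ± 0.11, the counterparts of a bacterial tunnel exit protein and of a 5S rRNA binding protein. Mrpl23, like Mrpl44, had passed the filter only through BM.

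Among the abundant members, Mrps21 was 1.25 ± 0.06 lower in lung than in BM (limma, adjusted p = 1.84e-08), but only 0.45 lower with rescaled FPKM, which is not a call. Mrps15, the counterpart of a bacterial protein that binds the small subunit rRNA, differed by -0.54 ± 0.05 and by 0.27 with rescaled FPKM, so its direction turned with the scale. Mrpl33 differed by 0.36 ± 0.04, which is not a call, but was called higher in lung at 1.20 with rescaled FPKM, at 1.17 by edgeR and at 1.22 by DESeq2. The 3 paralogs of Mrps18 were not alike in level. Mrps18c reached 35.4, 30.2 and 31.4 FPKM in BM and 13.5, 11.4 and 14.6 in lung, a fall of 1.24 ± 0.09 that was 0.45 with rescaled FPKM. Mrps18a, which sits in the large subunit in mitoribosome structures despite its name, had a log2 fold change of -1.0 ± 0.07 and was not called, but was called without BM library 3 (-1.05), lung library 1 (-1.01) or lung library 3 (-1.01). Mrps18b stayed below 0.6 FPKM in all 9 libraries and was not tested.

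The calls in this comparison were also counted by the subunit and number in the gene name, so that Mrps18a counts as small subunit. Of members named for the large subunit, 2 of 43 tested rose and 21 fell, with a median of -0.99. Of those named for the small subunit, 1 of 22 rose and 13 fell, with a median of -1.14. Of the members with a bacterial family number 1 of 36 rose and 17 fell, with a median of -0.98. Of those with mitochondria-specific numbers 2 of 29 rose and 17 fell, with a median of -1.11. No test of these splits was made.

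Other genes of the mitochondrial translation pathway were read from lists. Of 6 tested mitoribosome proteins outside the name rule (such as Dap3 and Ptcd3) 4 fell, with a median of -1.29, and of 8 mitochondrial translation factors 7 fell, with a median of -1.31. Among 12 factors of mitoribosome assembly and rRNA modification 1 rose and 6 fell, with a median of -1.11. Of 8 mitochondrial aminoacyl-tRNA synthetases, which charge the tRNAs, 2 rose and 0 fell by limma, with a median of -0.45, while edgeR called 2 higher and 1 lower. Of 4 genes of mitochondrial DNA transcription and replication 1 rose and 2 fell. The nuclear subunits of the respiratory chain and ATP synthase, which are built together with the products of these ribosomes, showed 0 of 75 higher and 37 lower, with a median of -0.98, but 2 higher and 8 lower by edgeR. The cytosolic ribosomal proteins showed 0 of 78 higher and 2 lower, a median of -0.11, and 21 higher and 0 lower by edgeR. Of mRNAs encoded in mitochondrial DNA, 0 were listed in the tables, so the transcripts that these ribosomes translate were not analysed here. The summed immature and cycling marker level in BM given above moved with this comparison, and its part in the result was not tested.

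PB neutrophils were compared with BM neutrophils to describe the step from production to the circulation. Of the 65 members tested, 4 rose in PB and 11 fell, beside 7.85% and 14.1% of all 8237 genes tested. The 4 that rose were Mrpl52, Mrps28, Mrps15 and Mrps24, and Mrpl45, Mrpl51 and Mrpl13 fell most. The members' median was -0.32 and that of all genes -0.12. With rescaled FPKM 4 rose and 8 fell, beside 9.4% and 12.2% of all genes, and the members' median was -0.23. The recovered reads gave more calls over the members and over all genes, with 5 members higher and 19 lower by edgeR, beside 11.6% and 17.8% of all genes. Of the 11 members called lower, 5 had passed the filter only through BM, and of the 4 called higher Mrps28 only through PB.

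Mrpl45 (chr11:97314923-97329920), a large subunit protein with a fold like that of Tim44 that anchors the mitoribosome to the inner membrane, showed the deepest fall into PB. Its levels were 4.58, 4.43 and 4.6 FPKM in BM, 0.239, 0.188 and 0.227 in PB and 1.32, 1.01 and 1.54 in lung. The reads were 220 to 229 per BM library, 9 to 11 per PB library and 45 to 66 per lung library, so PB was the lowest tissue and all 3 were separate. The log2 fold change from BM to PB was -2.18 ± 0.07 (limma, adjusted p = 6.5e-08), and Mrpl45 had passed the filter only through BM. Mrpl13, the counterpart of bacterial L13, fell by 1.31 ± 0.21 (limma, adjusted p = 0.000655), from 6.5, 4.34 and 3.39 FPKM to 1.65, 0.829 and 1.37. Of its exon bases 27.0% lie opposite Mtbp, and the strand setting of the counting is not stated in the sources used here.

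Mrps15 was highest in PB, at 89.3, 96.0 and 68.7 FPKM against 33.8, 30.6 and 32.6 in BM and 22.9, 21.0 and 22.0 in lung. It rose by 1.35 ± 0.12 from BM to PB (limma, adjusted p = 1.72e-05) and was 1.89 ± 0.12 lower in lung than in PB (limma, adjusted p = 1.83e-06). Mrps24, also of the small subunit, showed the same order of PB above the others with 8.19, 7.77 and 8.6 FPKM in BM, 19.4, 18.9 and 19.3 in PB and 9.33, 9.66 and 7.74 in lung. BM and lung overlapped, and PB exceeded BM by 1.14 ± 0.06 (limma, adjusted p = 8.24e-07). In PB against BM the lists of other mitochondrial genes had medians of -0.43 for assembly factors, -0.42 for translation factors and -0.39 for nuclear respiratory subunits, and the cytosolic ribosomal proteins had a median of 0.32.

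Lung and PB neutrophils were compared in both experiments, which share no library. In the tissue comparison 1 of 54 members tested was higher in lung and 14 were lower, beside 7.75% and 19.5% of 7577 genes. In the WT mice of the Piezo1 experiment 2 of 59 were higher and 24 lower, beside 7.5% and 26.5% of 7143 genes. The medians were -0.72 over the members and -0.54 over all genes in the first, and -0.81 and -0.62 in the second. Rescaled FPKM gave 5 members higher and 4 lower in the tissue comparison, beside 12.1% and 6.15% of all genes, and 3 higher and 12 lower in the Piezo1 experiment, beside 13% and 9.03%. The median of all genes was then -0.02 in both, and that of the members -0.23 and -0.32. Of the members called lower, 4 and 7 had passed the filter only through PB, and the 1 and 2 called higher had passed it only through lung. Leaving out WT PB library 2 of the Piezo1 experiment gave 17 calls of 49 members tested.

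Of the 52 members tested in both experiments, 15 were called in the tissue comparison and 25 in the Piezo1 experiment, and 14 were called in both with the same direction, which is 93.3% of the first and 56.0% of the second. The direction was the same for 50 of the 52, and the log2 fold changes had a Pearson r of 0.81 and a Spearman rho of 0.76 across these members, beside a Pearson r of 0.90 across all 6719 genes tested in both. Of all genes tested, 5998 of 7577 and 5630 of 7143 were below 0, so a shared direction is frequent on this scale. The shares of shared calls and shared directions over all genes were not counted, so these counts set the members apart from no other genes. Some of the shared calls could only come out in 1 direction. Mrpl1 and Mrpl44 had passed the filter only through PB in both experiments, and Mrpl22 only through PB in the tissue comparison. Mrpl16 had passed it only through lung in both experiments. Genes are not independent replicates, and all points of an experiment share its libraries. Mrpl16 was higher in lung in both. The 13 lower in both were Mrpl1, Mrpl9, Mrpl10, Mrpl18, Mrpl22, Mrpl34, Mrpl43, Mrpl44, Mrpl53, Mrps16, Mrps23, Mrps24 and Mrps34.

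**Figure D3:**
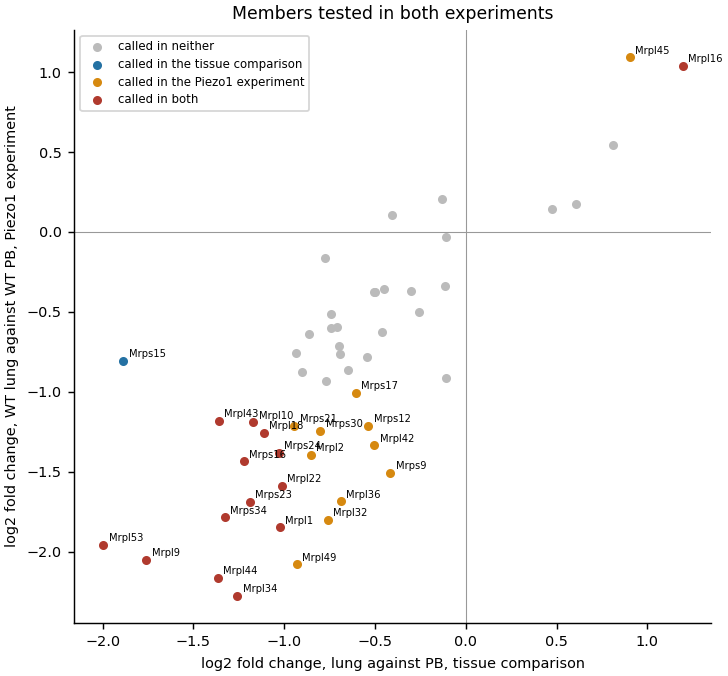
Log2 fold change of lung against PB in the tissue comparison (x axis) and in the WT mice of the Piezo1 experiment (y axis), on the log2(FPKM + 1) scale, for the 52 members tested in both; colours give where a member was called. Points at lower left include Mrpl53, Mrpl9 and Mrpl44, and Mrpl16 stands at upper right.

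Mrpl16 (chr19:11770415-11774956), the counterpart of a bacterial protein close to the peptidyl transferase centre, had its lowest level in PB. In the tissue comparison it reached 1.56, 1.78 and 1.15 FPKM in BM, 0.448, 0.814 and 0.142 in PB and 2.47, 2.42 and 2.03 in lung. In the Piezo1 experiment WT lung gave 1.6 and 1.52 FPKM and WT PB 0.201 and 0.294. Lung libraries were above PB libraries throughout, by 1.19 ± 0.16 (limma, adjusted p = 0.000179) and 1.04 ± 0.09 (limma, adjusted p = 1.85e-05). The PB values rest on 3 to 17 reads, and without WT PB library 1 the second difference was 0.99 and not called. Without any 1 of the lung libraries Mrpl16 missed the filter, and 0 members were called higher in lung in either experiment. Mrpl45 was higher in lung than in PB by 0.90 ± 0.10 in the tissue comparison, where its mean was 5.91-fold that of PB. This is not a call by limma, but the difference was called at 1.13 with rescaled FPKM, at 3.17 by edgeR and at 3.21 by DESeq2. In the Piezo1 experiment it was higher by 1.09 ± 0.11 (limma, adjusted p = 4.98e-05), and by 1.00 and not called without WT PB library 2, while edgeR gave 3.32 and DESeq2 3.35, both calls. Mrpl45 had passed the filter only through lung in both experiments. All these fits used that filter, so the direction was set by it.

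Mrpl53 had the largest fall from PB to lung in the tissue comparison, at 10.7, 11.3 and 8.16 FPKM in PB and 1.6, 1.79 and 1.86 in lung. The difference was -2.0 ± 0.12 (limma, adjusted p = 1.46e-06), and -1.96 ± 0.16 in the Piezo1 experiment (limma, adjusted p = 1.34e-05). All of its exon bases are also annotated to Gm42688 on the same strand, so the transcript behind these reads is uncertain. Mrpl9 was 1.76 ± 0.18 and 2.05 ± 0.12 lower in lung than in PB, and Mrpl44 was 1.37 ± 0.09 lower in the tissue comparison.

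In the Piezo1 experiment Mrpl44 and Mrpl49 had 0 reads in both WT lung libraries, against 65 and 75 reads of Mrpl44 and 72 and 85 of Mrpl49 in WT PB. Taking 3 reads as the floor of each lung library, Mrpl44 was at least 24.8-fold lower and Mrpl49 at least 27.7-fold lower in lung. With these members at their bounds the median over the members remained -0.81. Mrpl34 reached 21.5 and 21.4 FPKM in WT PB but 2.49 and 5.15 in WT lung, the largest fitted fall of this comparison at -2.28 ± 0.23 (limma, adjusted p = 4.74e-05). The lung libraries differed from each other by more than the PB libraries did, yet the groups did not overlap.

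Mrpl33 was lower in lung than in PB by 0.30 ± 0.06 and 0.37 ± 0.02 on the deposited scale but higher by 0.32 and 0.36 with rescaled FPKM, and was called in neither. Mrps18c turned in the same way, from -0.45 and -0.36 to 0.13 and 0.34. The other lists had medians of -0.89 and -1.07 for translation factors and -0.56 and -0.75 for nuclear respiratory subunits in the 2 experiments. For cytosolic ribosomal proteins, outside this pathway, they were -0.47 and -0.69, and for all genes -0.54 and -0.62. By edgeR the medians were -1.46 and -1.86, 0.03 and -0.07, and 0.13 and -0.01 for the 3 lists in this order, beside -0.03 and -0.04 over all genes. Epithelial markers in the Piezo1 experiment summed to 5.64 to 6.43 FPKM in WT lung and 0 in WT PB, with Epcam at 0 in both. The immature and cycling list summed to 221 to 224 FPKM in WT lung and 528 to 549 in WT PB, led by Ltf and Camp. Within that list the cycling marker Mki67 overlapped, and Mpo was higher in lung. Erythroid markers summed to 5.11 to 5.12 and 24.9 to 26.7. The part of these lists in the differences was not tested.

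**Figure D4:**
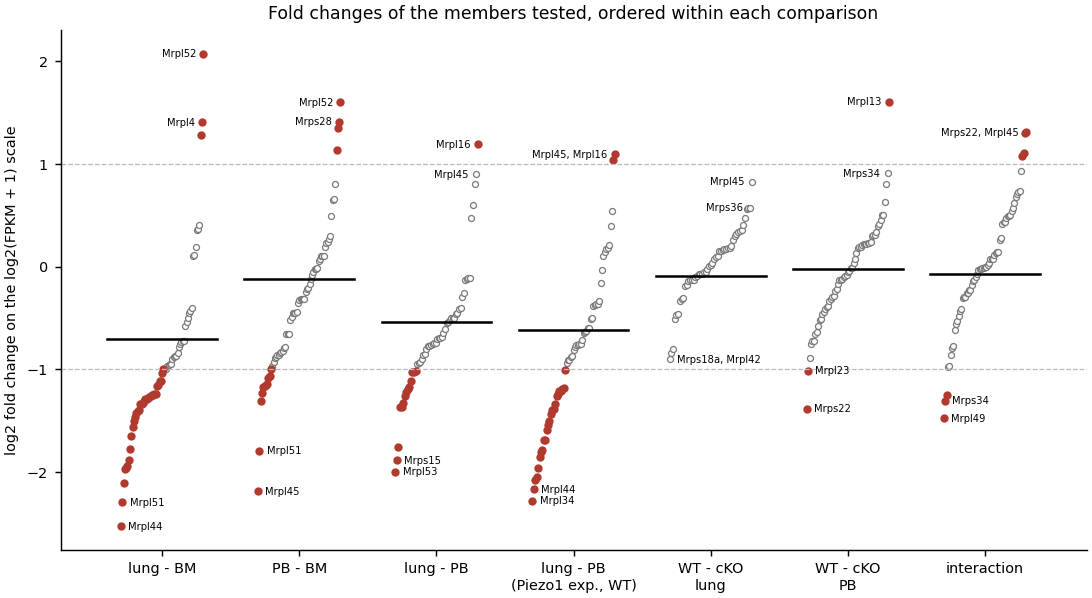
Log2 fold changes of the tested members (points, ordered within each comparison) for 7 comparisons along the x axis, on the log2(FPKM + 1) scale; filled points are called, black lines are the median of all genes tested and dashed lines mark a log2 fold change of 1 in either direction. The black line lies at -0.70 for lung against BM, and no point is filled for WT against Piezo1-cKO in lung.

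Piezo1 itself, a mechanically gated cation channel, was read first for the genotype comparison. In lung it had 8 and 8 reads in WT against 7 and 4 in Piezo1-cKO, and in PB 5 and 5 in WT against 3 and 10 in Piezo1-cKO, which is 0.0301 to 0.0758 FPKM. The groups overlapped in PB and lay 1 to 4 reads apart in lung, so at this depth the level of Piezo1 could not check the genotype labels. In the tissue comparison it had 200 to 227 reads in BM, 44 to 71 in PB and 34 to 61 in lung.

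In lung, none of the 49 members tested was called between WT and Piezo1-cKO by limma, beside 0.202% of 6434 genes called higher and 0.793% lower in WT. At an unadjusted p below 0.05 the count was 19, beside 57.4% of all genes. At an adjusted p below 0.05 with no fold threshold it was 17, beside 50.7%, with 11 members higher in WT, where 15.8% of all genes were, and 6 lower, where 35% were. By edgeR, Mrpl45 and Mrps36 were higher in WT and Mrpl42 was lower, beside 5.36% of all genes called in either direction. DESeq2 called 2 members, Mrpl45 and Mrps18a, beside 4.83%. The members' median was 0.02 and that of all genes -0.09. In the alternatives without WT lung library 2, Mrps18a and Mrpl34 were called lower in WT, at -1.05 and -1.21, and without Piezo1-cKO lung library 1 Mrps18a was called, at -1.07.

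The largest positive difference in lung was that of Mrpl45, with 1.57 and 1.94 FPKM in WT and 0.678 and 0.431 in Piezo1-cKO. These groups did not overlap, and the log2 fold change was 0.83 ± 0.12 (limma, adjusted p = 0.00144), below the fold threshold. Mrps18a lay at the other end with 2.49 and 3.31 FPKM in WT and 5.42 and 7.14 in Piezo1-cKO, a difference of -0.90 ± 0.15 (limma, adjusted p = 0.0025). Mrps36, which is also known as a subunit of the 2-oxoglutarate dehydrogenase complex, had 1.5 and 1.76 FPKM in WT and 0.854 and 0.685 in Piezo1-cKO, on 16 to 19 and 7 to 9 reads. Mrpl45 and Mrps36 had passed the filter only through WT. Mrpl33 had 503 and 520 FPKM in WT and 496 and 521 in Piezo1-cKO, which overlapped, with a difference of 0.01 ± 0.03. Of the other lists in lung, 1 of 75 cytosolic ribosomal proteins was higher in WT, and 1 of 73 nuclear respiratory subunits and 1 of 4 aminoacyl-tRNA synthetases were lower. The immature and cycling list summed to 221 to 224 FPKM in WT lung and 301 to 312 in Piezo1-cKO lung, again led by Ltf and Camp. Its cycling marker Mki67 went the other way, with 0.385 and 0.461 FPKM in WT and 0.323 and 0.215 in Piezo1-cKO. Mpo, Prtn3 and Cebpe were also lower in both Piezo1-cKO libraries. The remaining genes of that list reached at most 0.340 FPKM in lung of this experiment. The epithelial list summed to 5.64 to 6.43 and 3.22 to 3.87, and the part of both lists in these values was not tested.

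In PB, 1 of the 59 members tested was higher in WT and 2 were lower, beside 1.97% and 1.68% of 7256 genes. Mrpl13 was the higher one, at 5.40 and 5.0 FPKM in WT and 0.529 and 1.71 in Piezo1-cKO. Both WT libraries were above both Piezo1-cKO libraries, which rest on 4 and 19 reads, and the difference was 1.61 ± 0.25 (limma, adjusted p = 0.00258). Without either WT library it was 1.56 or 1.65 and no longer past the threshold. Mrps22 (chr9:98588730-98601679), a small subunit protein whose mutation causes mitochondrial disease, had 0.25 and 0.329 FPKM in WT on 4 and 6 reads and 2.65 and 2.09 in Piezo1-cKO on 31 and 36 reads. It was 1.38 ± 0.12 lower in WT (limma, adjusted p = 0.000404) and passed the filter only through Piezo1-cKO. Without either Piezo1-cKO library Mrps22 missed the filter and was not tested. Mrpl23 had 1.17 and 1.45 FPKM in WT and 3.26 and 4.07 in Piezo1-cKO, a difference of -1.01 ± 0.13 (limma, adjusted p = 0.00108) that was -0.92 without WT library 1 and -0.89 without Piezo1-cKO library 2, neither of them a call. Without WT library 1 the count of calls was 1.

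Other fits gave more calls in PB over the members and over all genes. By edgeR 7 of the 59 members were called (3 higher and 4 lower in WT), beside 10.1% of all genes, and by DESeq2 5, beside 9.5%, which are shares close to those of all genes. The members' median was -0.05 and that of all genes -0.02. In PB, erythroid markers summed to 24.9 to 26.7 FPKM for WT against 1011 to 1136 for Piezo1-cKO, and the immature and cycling list summed to 528 to 549 and 827 to 879 FPKM. The latter list was led by Ltf and Camp, and its cycling marker Mki67 overlapped between the genotypes. The part of these lists in the 3 calls was not tested. Of the other lists in PB, 3 of 8 translation factors were lower in WT and 0 higher, while 2 of 75 nuclear respiratory subunits were higher and 0 lower by limma (2 and 3 by edgeR), and of 76 cytosolic ribosomal proteins 0 were called in either direction by limma and 0 by edgeR.

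Whether the genotype difference itself differed between lung and PB was tested with an interaction, coded as WT minus Piezo1-cKO in lung less the same difference in PB. Of the 63 members tested, 4 were positive (Mrps22, Mrpl45, Mrpl47 and Mrps26) and 3 negative (Mrpl13, Mrps34 and Mrpl49), beside 2.57% and 4.29% of 7560 genes. Both directions occurred, and the median was -0.01 over the members and -0.08 over all genes. By edgeR 6 were positive and 9 negative, beside 6.49% and 10.3% of all genes. Of 8 translation factors 3 were positive and 0 negative by limma and by edgeR alike, and of 13 assembly factors 0 were positive and 2 negative by limma, and 1 and 3 by edgeR. Leaving out Piezo1-cKO lung library 1 gave 11 calls and leaving out Piezo1-cKO PB library 1 gave 4.

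Mrpl49 had the most negative interaction, -1.48 ± 0.17 (limma, adjusted p = 0.000288). In lung it had 0 and 0 FPKM in WT against 0.631 and 0.977 in Piezo1-cKO, and in PB 3.17 and 3.29 in WT against 1.51 and 1.97 in Piezo1-cKO. WT was thus below Piezo1-cKO in both lung libraries and above it in both PB libraries. Mrps34, whose mutation causes Leigh syndrome, had the same order, with 0.299 and 0.370 FPKM in WT against 0.529 and 1.01 in Piezo1-cKO for lung, and 4.05 and 3.19 against 1.85 and 1.10 for PB. Its interaction was -1.31 ± 0.25 (limma, adjusted p = 0.00311).

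Mrpl45 and Mrpl47 ran the other way. In PB, Mrpl45 had 0.379 and 0.205 FPKM in WT against 0.798 and 0.786 in Piezo1-cKO, so that WT was above Piezo1-cKO in lung and below it in PB, with an interaction of 1.30 ± 0.16 (limma, adjusted p = 0.000445). Here too Mrpl45 had passed the filter only through WT lung. Mrpl47, the counterpart of bacterial L29, had 4 and 4 reads in WT against 0 and 0 in Piezo1-cKO for lung, and 6 and 6 against 13 and 17 for PB. Its interaction of 1.11 ± 0.12 (limma, adjusted p = 0.000202) rests on these few reads, and the lung difference is close to the floor. Mrpl47 had passed the filter only through Piezo1-cKO PB. Mrps26 had 3.07 and 3.94 FPKM in WT against 2.05 and 2.04 in Piezo1-cKO for lung, and 3.71 and 4.36 against 6.70 and 5.73 for PB.

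The interaction of Mrps26 was 1.08 ± 0.17 (limma, adjusted p = 0.00115). It was 0.94 without WT lung library 2 and 0.98 without WT PB library 1 or Piezo1-cKO PB library 1, and not called in these 3 fits. Mrps22 had 0.663 and 1.09 FPKM in WT lung and 1.06 and 0.865 in Piezo1-cKO lung, which overlapped, so its interaction of 1.31 ± 0.19 (limma, adjusted p = 0.00078) came with the PB difference described above. Mrpl13 had 2.22 and 2.37 FPKM in WT lung and 1.38 and 1.78 in Piezo1-cKO lung, with WT higher in both tissues and by more in PB. Its interaction was -1.25 ± 0.31 (limma, adjusted p = 0.0111), and -0.84 without Piezo1-cKO PB library 1 and -1.49 by DESeq2, neither of them a call.

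**Figure D5:**
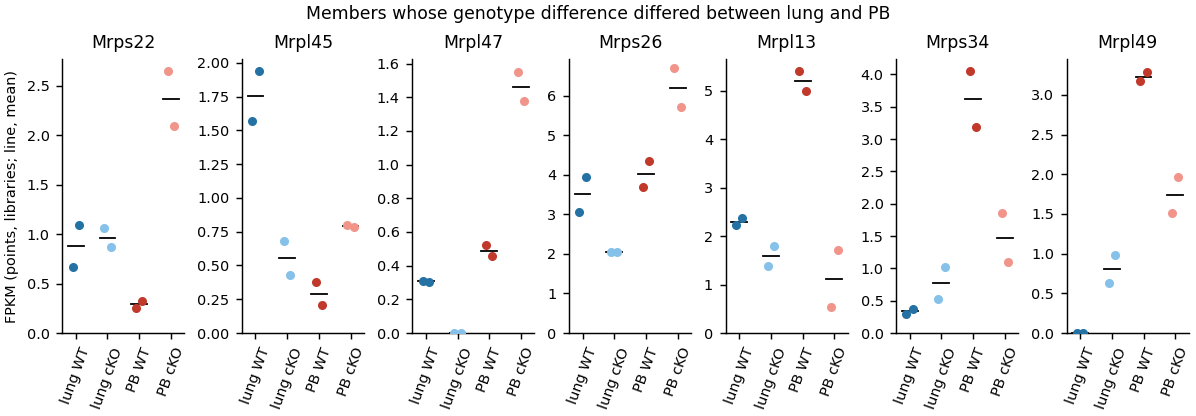
Level in FPKM (y axis, starting at 0) of the 7 members with a called interaction, in the 4 groups of the Piezo1 experiment (x axis); points are the 2 libraries of a group and lines their mean. Mrpl49 is at 0 in both WT lung libraries and at 3.17 and 3.29 in WT PB.

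In no comparison were Mrpl11, Mrpl15, Mrpl35, Mrps2, Mrps5, Mrps6, Mrps10, Mrps25 and Mrps27 tested, because they were too low. Their highest level in any library was 0.287 FPKM for Mrpl11 and 1.12 for Mrps5, and Mrps2 had 0 reads in 12 of the 17 libraries. The remaining 68 members were tested in at least 1 comparison.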

How the data were processed

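RNA from sorted neutrophils was sequenced in 17 libraries. Per the labels, poly(A) RNA was taken and a SMARTER mRNA kit was used, while the methods name the VAHTS Universal V6 kit. Reads were processed by the authors with fastp, HISAT2 (mm10) and HTSeq, versions not given in the sources used here, and the strand setting of the counting was not stated. The authors deposited FPKM per gene and library. In the Piezo1 tables the authors also deposited group means of counts divided by size factors, a signal that was used only to check the recovered reads (98.6% of lung and 97.3% of PB values rebuilt within 0.1%). Columns with the authors' own fold changes, p-values and q-values were not used. Samples were grouped by their labels.

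Genes at or above 1 FPKM in at least 3 libraries (tissue comparison) or 2 libraries (Piezo1 experiment) of the groups compared were tested with limma 3.58.1 (trend and robust) in R 4.3.3 on log2(FPKM + 1), with Benjamini-Hochberg adjustment over all genes tested. Whole reads were recovered from FPKM for 100% of values above 0 (tolerance 0.02 reads) and tested with edgeR 4.0.16 and DESeq2 1.42.0 as alternatives. Further alternatives were a pseudocount of 0.1, no filter, rescaled FPKM, the replicate number as a block, adjusted p alone and each library left out. The fits were tested on simulated data. Deviations of same-numbered libraries from their group means correlated at -0.0890 to 0.0547. With so few libraries these values cannot show whether same numbers mark the same mice, which the labels do not say. Named in each comparison were the 5 largest and 5 smallest fold changes, members called between genotypes, the 3 most abundant members of each tissue and the Mrps18 paralogs. Members called in both experiments and the untested members were named after their values were seen. The members and gene lists were chosen with earlier results of these data known. Whole-lung libraries were not analysed here, and the level of 1 marker gene is not reported here.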

Additional observations from a re-analysis of the deposited data

Results flagged for a closer look

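The genotype difference of 7 members differed between lung and PB by the interaction term of limma, with values on the log2(FPKM + 1) scale and the coding used above. The value was 1.31 for Mrps22, 1.30 for Mrpl45, 1.11 for Mrpl47 and 1.08 for Mrps26. In Mrpl45, Mrpl47 and Mrps26 the WT mean was above that of Piezo1-cKO in lung and below it in PB, while that of Mrps22 was 0.878 against 0.963 FPKM in lung, where the groups overlapped, and 0.289 against 2.37 in PB. The value was -1.25 for Mrpl13, with WT higher in both tissues and by more in PB, and -1.31 for Mrps34 and -1.48 for Mrpl49, with WT lower in lung and higher in PB. Mrpl45, Mrpl47, Mrps26, Mrps34 and Mrpl49 changed direction between the tissues in their group means. Mrps22 and Mrps34 had a group with at most 6 reads in both libraries, and Mrpl47 and Mrpl49 had a group with 0 reads in both. Mrpl45 had passed the filter only through WT lung and Mrpl47 only through Piezo1-cKO PB. Groups of 2 or 3 libraries were too small to single out a library as far from its group.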

How the results depend on the processing

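Depth limits members with few reads, and log2(FPKM + 1) compresses them. In lung against BM the members' median was -1.57 with a pseudocount of 0.1, -0.95 with no filter, -0.49 with rescaled FPKM, -0.90 by edgeR and -0.86 by DESeq2, with 16 calls on rescaled FPKM (33.2% of all genes) and 62 on adjusted p alone (92.6%). In PB against BM the calls were 25 with a pseudocount of 0.1, 24 by edgeR, 25 by DESeq2 and 46 on adjusted p alone, beside 29%, 29.4%, 29.4% and 73.1% of all genes, and the median was -0.43 with the smaller pseudocount and -0.23 rescaled. In lung against PB of the tissue comparison there were 27 calls with a pseudocount of 0.1, 9 rescaled and 50 on adjusted p alone (38%, 18.3% and 85.5% of all genes), and in WT of the Piezo1 experiment 15 rescaled and 53 on adjusted p alone (22.1% and 89%). The medians of these 2 comparisons were -0.94 and -1.15 with a pseudocount of 0.1, -0.50 and -0.65 with no filter, -0.23 and -0.32 rescaled, -0.35 and -0.49 by edgeR, and -0.33 and -0.46 by DESeq2. Between genotypes in lung there were 3 calls with a pseudocount of 0.1, 3 by edgeR, 2 by DESeq2 and 17 on adjusted p alone, beside 5.16%, 5.36%, 4.83% and 50.7% of all genes, with medians of 0.11 rescaled, 0.14 by edgeR and 0.14 by DESeq2. In PB there were 7, 7, 5 and 27 calls under the same 4 settings, beside 9.26%, 10.1%, 9.5% and 49.7%, with medians of -0.0143 by edgeR and -0.0257 by DESeq2. The interaction gave 13 calls with a pseudocount of 0.1, 15 by edgeR and 23 on adjusted p alone, beside 16%, 16.8% and 48.2%, with medians of 0.11 rescaled and 0.081 by DESeq2.

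With 1 library left out at a time, the calls ranged from 23 to 38 (lung against BM), 10 to 15 (PB against BM), 11 to 15 (lung against PB), 17 to 25 (WT lung against WT PB), 0 to 2 (genotype, lung), 1 to 3 (genotype, PB) and 4 to 11 (interaction). The medians ranged from -1.08 to -0.91, -0.39 to -0.26, -0.76 to -0.61, -0.94 to -0.76, -0.02 to 0.07, -0.11 to 0.0021 and -0.05 to 0.05 in the same order.

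Directions turned in members that were not called. Under rescaled FPKM, edgeR and DESeq2 respectively, Mrps15 in lung against BM became 0.27, 0.24 and 0.29. Mrpl33 became 0.32, 0.33 and 0.34 in lung against PB and 0.36, 0.35 and 0.38 in WT of the Piezo1 experiment, and Mrps18c 0.13, 0.14 and 0.16, and 0.34, 0.35 and 0.37. Mrps21 between genotypes in lung became 0.00704, 0.00981 and 0.00724, and its interaction 0.11, 0.0768 and 0.11. With a library left out, Mrpl33 between genotypes in lung ranged from -0.0252 to 0.0453 and the interaction of Mrps21 from -0.0731 to 0.0616. The cause was not tested. With the replicate number as a block, no call changed, with 37 calls in lung against BM and 7 in the interaction. Whether replicate numbers pair the samples is not known. Of the values of single members, 934 kept their direction and side of the threshold, 75 passed it newly, 24 no longer passed it and 27 changed sign.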
